A study of Homo sapiens with 10 samples.

Results

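Described here are 10 of the 34567 genes in the expression table. They are 4 SOX transcription factors (SOX2, SOX4, SOX9 and SOX11), the transcription factors MYC and KLF4, the surface proteins CD24, CD44 and PROM1, which are used to sort stem-like glioma cells, and the astrocyte filament gene GFAP. The genes were chosen by name as stem and lineage markers, with earlier results of these data known. CD24 was taken in because it fell in both perturbed lines, so its changes there are given as a description with no test.

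RNA sequencing was done on 10 libraries from a pair of established human glioblastoma cell lines grown in DMEM with fetal bovine serum, to look for genes that respond to MEOX2, a homeobox transcription factor. SNB19 cells were transfected transiently with Lipofectamine, with either a scramble siRNA (NC, 3 libraries) or a MEOX2 siRNA (siMEOX2, 3 libraries). U87 cells carried a lentivirus with an empty vector (EV, 2 libraries) or with MEOX2 (OE, 2 libraries), and the study describes the overexpression line as selected with puromycin. The labels do not say whether libraries of a group came from separate cultures, so each p-value below measures only the spread between these libraries, which may be technical.

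SOX proteins are HMG-box factors that bind DNA and set gene programmes in progenitors: SOX2 keeps neural stem cells undifferentiated, SOX4 and SOX11 act later in neuronal progenitors, and SOX9 serves glial progenitors and astrocytes. MYC drives growth and ribosome production, and KLF4 is a zinc-finger factor that can help return cells to pluripotency. CD44 is the receptor for hyaluronan, CD24 is a small lipid-anchored glycoprotein, PROM1 (CD133) sits on membrane protrusions, and GFAP builds the intermediate filaments of mature astrocytes.

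The targeted gene was read first. MEOX2 stood at 6.01, 6.53 and 7.09 FPKM (counts scaled to gene length and library size) in the NC libraries and at 1.38, 1.11 and 1.39 FPKM in the siMEOX2 libraries. This was a log2 fold change of -2.41 (SE 0.14; edgeR quasi-likelihood test, Benjamini-Hochberg adjusted p = 1.35e-11). No MEOX2 read was counted in either EV library, while the OE libraries held 4999 and 5308 counts, so MEOX2 was at least 3821-fold higher in OE when 3 counts over the EV group are taken as the floor. The libraries therefore carried the perturbation their labels name, and MEOX2 itself was at least 164-fold higher in SNB19 NC than in U87 EV by the same floor. Floors and counting intervals here cover counting error only.

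Each library held 12533775 to 16560324 counts. EV replicate 1 stood apart from the other 9: ribosomal protein genes took 13% of its counts against 4.04 to 6.68% elsewhere, the median gene length behind a count was 3947 bp against 5178 to 5340 bp, and its log2 CPM (counts scaled to library size) correlated with EV replicate 2 at r = 0.8911, where pairs within the other groups gave 0.9896 to 0.9919. The changes of the members in U87 are therefore also given without it. Of the markers listed as glial, 4 of 8 had a mean above 1 FPKM in NC, siMEOX2 and EV and 3 of 8 in OE, led by VIM. SLC1A3 had a mean of 17.0 FPKM in NC and 5.34 in EV, NES of 9.75 and 2.77, and OLIG2 of 1.15 and 1.5. In OE, OLIG2 was at 6.21 and NES at 0.204. In every library GFAP was at or below 0.397 FPKM, and S100B, AQP4 and ALDH1L1 were at or below 0.222 FPKM. These levels alone do not establish a glial identity.

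The promoter windows of 4 members are shown because MEOX2 is a homeobox factor, a class that is known to bind a TAAT core, and because these members moved in opposite directions. They are RefSeq promoters of GRCh38.p14, from 250 bases before to 50 bases after the start site, 5′ to 3′ on the strand of the gene, with each TAAT or its reverse complement ATTA in capitals. SOX2 lies at chr3:181711675-181711974 on the plus strand, SOX4 at chr6:21593501-21593800 on the plus strand, CD44 at chr11:35138921-35139220 on the plus strand and KLF4 at chr9:107489720-107490019 on the minus strand. The start sites are those of RefSeq. In the GENCODE 29 annotation the SOX4, CD44 and KLF4 windows lie wholly within the gene, so they are not upstream sequence by that annotation.
SOX2: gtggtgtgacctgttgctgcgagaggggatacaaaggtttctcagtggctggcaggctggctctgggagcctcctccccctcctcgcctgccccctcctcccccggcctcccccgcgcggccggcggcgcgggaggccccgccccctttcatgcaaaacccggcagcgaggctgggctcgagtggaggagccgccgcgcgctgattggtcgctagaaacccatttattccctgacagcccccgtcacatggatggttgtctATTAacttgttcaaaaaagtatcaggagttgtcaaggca
SOX4: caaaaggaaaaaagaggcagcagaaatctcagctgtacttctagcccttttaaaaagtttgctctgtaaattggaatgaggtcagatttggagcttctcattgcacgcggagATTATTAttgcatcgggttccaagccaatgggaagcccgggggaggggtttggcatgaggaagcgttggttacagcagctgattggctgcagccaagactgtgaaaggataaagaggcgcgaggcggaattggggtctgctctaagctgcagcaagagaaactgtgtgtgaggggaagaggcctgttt
CD44: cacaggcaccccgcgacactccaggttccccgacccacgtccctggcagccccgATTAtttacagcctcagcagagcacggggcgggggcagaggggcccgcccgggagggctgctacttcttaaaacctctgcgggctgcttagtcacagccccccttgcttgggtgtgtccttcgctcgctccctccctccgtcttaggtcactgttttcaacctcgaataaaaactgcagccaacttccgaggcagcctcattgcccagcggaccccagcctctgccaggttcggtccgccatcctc
KLF4: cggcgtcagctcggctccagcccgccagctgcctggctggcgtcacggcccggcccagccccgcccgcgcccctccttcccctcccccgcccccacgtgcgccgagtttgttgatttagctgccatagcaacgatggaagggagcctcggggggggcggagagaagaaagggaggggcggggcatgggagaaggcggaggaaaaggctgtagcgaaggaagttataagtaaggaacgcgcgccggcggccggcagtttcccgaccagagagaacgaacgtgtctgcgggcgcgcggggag
The SOX2 window held the core once, starting at position 12 downstream of the start site, the SOX4 window held it at -138 and -135 as overlapping copies, the CD44 window held it at -196, and the KLF4 window held none. RefSeq windows were found for 6 of the 10 members, 11 windows in all, and those not shown belong to PROM1 and CD24. PROM1, which rose in the knockdown, held the core at -250 in its window 1, at -222 and -23 in window 2 and at -110 in window 4. CD24, which fell, held it at -200 in its window 3 and not in windows 1 and 2. The core was thus present in a member that rose as well as in members that fell. TAAT on either strand was present in 7 of these 11 windows against 50.2% of 35116 promoters, and the longer palindrome TAATTA, which contains the core on both strands, was in 0 of 11 against 4.84%. A SOX-type motif, ACAAAG on either strand, was found at -220 in the SOX2 window and in a pair of CD24 windows, against 16.1% of all promoters. ACAATG on either strand was in none of the 11 windows and in 10.8% of all promoters. These matches are letters in a window and do not show binding.

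The control libraries gave the starting level of each member, and 7 of the 8 that could be tested passed between the lines, as given below. In SNB19 NC the levels ran from CD24 at 45.3 FPKM ± 0.83 (SD, n = 3) through CD44 at 28.9 ± 0.63, MYC at 24.5 ± 1.2, SOX9 at 18.3 ± 0.74, SOX2 at 13.2 ± 1.1, SOX4 at 7.22 ± 0.21 and KLF4 at 4.08 ± 0.24. GFAP at 0.363 ± 0.040 and PROM1 at 0.055 ± 0.024 FPKM lay far lower, and SOX11 held 1 count in the 3 libraries together. No neighbours in this order overlapped between libraries.

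In U87 EV the order began with CD44 at 58.1 and 74.6 FPKM and MYC at 46.1 and 85.1 FPKM, which overlapped each other. KLF4 at 4.48 and 10.9 FPKM overlapped SOX9 at 2.97 and 8.21 FPKM. CD24 at 1.62 and 1.42 FPKM came next, above SOX4 at 0.635 and 1.40 FPKM. GFAP was at 0.204 and 0.188 FPKM, and PROM1, SOX2 and SOX11 held at most 5 counts in either library. For MYC, KLF4, SOX9, SOX4 and CD44 the lower of each pair was EV replicate 1.

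**Figure D1:**
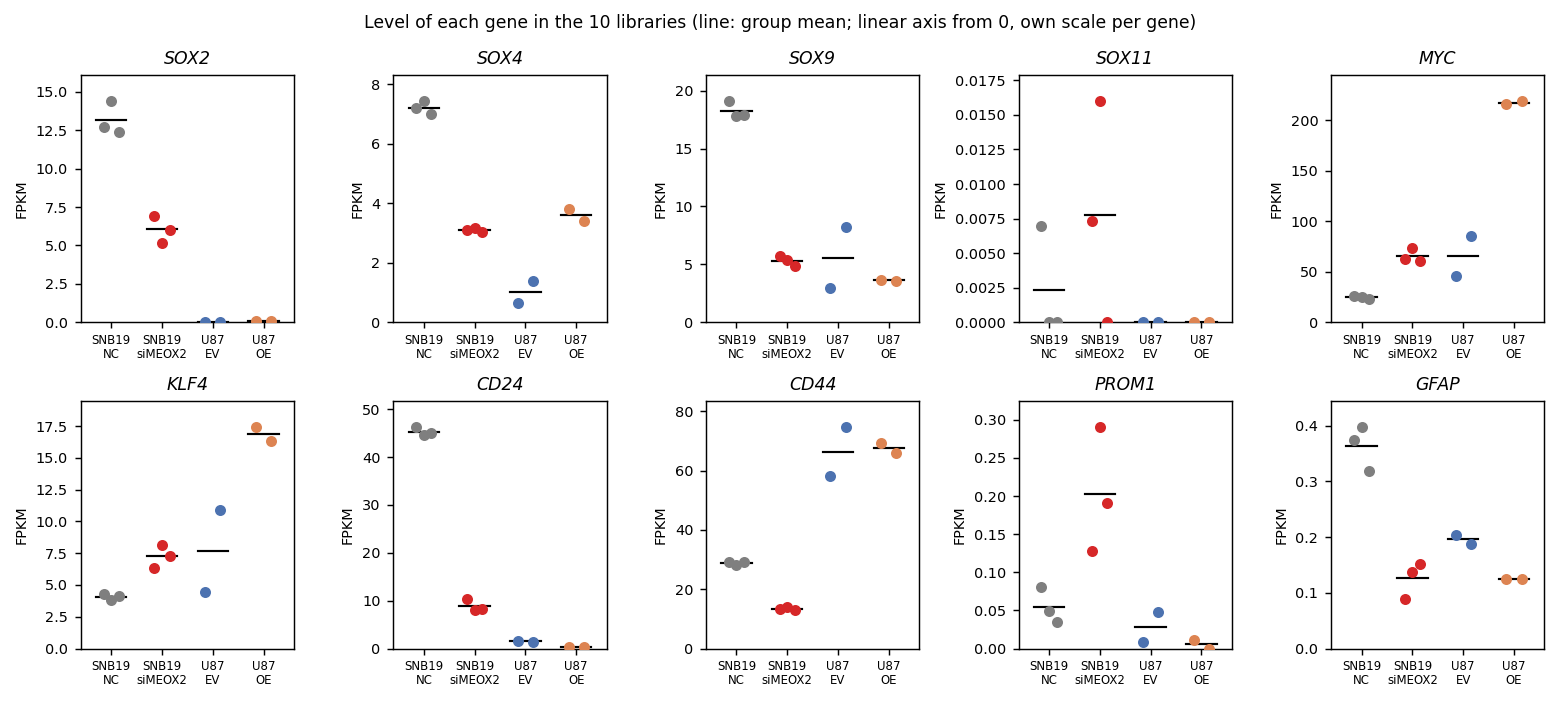
Deposited FPKM (y axis, linear from 0, its own scale for each gene) of the 10 genes in each library, with 3 SNB19 NC, 3 SNB19 siMEOX2, 2 U87 EV and 2 U87 OE libraries as points and a line at the group mean. SOX2 is at 12.4 to 14.4 FPKM in NC and at most 0.0952 FPKM in the 4 U87 libraries, and MYC is highest in OE at 216 and 219 FPKM.

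SNB19 NC was compared with U87 EV, and 7 of the 8 members above the count filter passed edgeR at an adjusted p under 0.05, where 41.4% of 16158 genes did. Of the 7, 4 were higher in SNB19 (21.4% of all genes) and 3 lower (20% of all genes). The lines also differ in their delivery (siRNA transfection against lentivirus), which cannot be told apart from the line. SOX2 passed the filter through the SNB19 libraries alone: its 1509 counts in NC against 1 in EV gave a ratio of 996 after scaling to library totals, with an exact 95% counting interval of 178 to 39347. SOX4 was higher in SNB19 by 2.52 on the log2 scale (SE 0.26, edgeR adjusted p = 0.00192) and CD24 by 4.49 (SE 0.28, edgeR adjusted p = 5e-04). SOX9 was higher by 1.42 (SE 0.33, edgeR adjusted p = 0.0216).

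MYC, CD44 and KLF4 ran the other way, with U87 as the high line. MYC was lower in SNB19 by a log2 change of -1.75 (SE 0.20, edgeR adjusted p = 0.00235), CD44 by -1.57 (SE 0.17, edgeR adjusted p = 0.00219) and KLF4 by -1.21 (SE 0.28, edgeR adjusted p = 0.0207). GFAP did not pass, with a log2 change of 0.49 (95% confidence interval -0.25 to 1.23). The groups of all 8 did not overlap in normalised counts, a property of 67% of the genes tested. The SOX9 and KLF4 calls were lost when any 1 NC library was left out (edgeR adjusted p 0.0771 to 0.0971), KLF4 and CD44 were lost with a replicate block (edgeR adjusted p 0.111 and 0.0773), and without EV replicate 1 GFAP passed as well, at a log2 change of 0.79, where 70.8% of all genes passed. The log2 change of SOX9 was 1.00 without EV replicate 1 and 2.05 without EV replicate 2, and that of KLF4 was -1.57 and -0.71.

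The first perturbation asked what changed when MEOX2 was lowered in SNB19. All 8 members that could be tested changed: SOX2, SOX4, SOX9, CD44 and GFAP fell, and MYC, KLF4 and PROM1 rose. This count stands against a wide response, since 55.9% of 15525 genes passed the same test, 27.4% of all genes upward and 28.5% downward. The groups of these 8 members did not overlap, as was the case for 60.8% of genes. PROM1 passed the count filter through the siMEOX2 libraries alone and had to rise to be tested.

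SOX9 was the SOX factor with the largest fall of the 3 that were tested. Its levels were 19.1, 17.8 and 17.9 FPKM in NC and 5.73, 5.38 and 4.87 FPKM in siMEOX2, a 3.61-fold fall (log2 change -1.85, SE 0.08, edgeR adjusted p = 6.35e-14). The highest siMEOX2 library was far below the lowest NC library. SOX4 went from 7.20, 7.44 and 7.01 FPKM to 3.09, 3.18 and 3.04 FPKM, with no overlap (log2 change -1.29, SE 0.08, edgeR adjusted p = 2.29e-11).

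SOX2, the stem-cell factor of the family, went from 12.7, 14.4 and 12.4 FPKM in NC to 6.94, 5.18 and 6.02 FPKM in siMEOX2. All 3 siMEOX2 libraries were below all NC libraries, and the log2 change was -1.19 (SE 0.10, edgeR adjusted p = 6.2e-09). SOX11 was not detectable at this depth in a way that allows a comparison, with counts of 1, 0 and 0 in NC and 1, 2 and 0 in siMEOX2, all under the floor of 3 counts.

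The 2 factors outside the SOX family went up. MYC stood at 25.5, 24.8 and 23.3 FPKM in NC and at 62.2, 73.9 and 61.1 FPKM in siMEOX2, a 2.54-fold rise (log2 change 1.35, SE 0.07, edgeR adjusted p = 1.25e-12). The siMEOX2 libraries thereby reached a mean of 65.7 FPKM, and MYC became the most abundant of the 10 members in them. KLF4 moved less, from 4.26, 3.81 and 4.17 FPKM to 6.32, 8.14 and 7.27 FPKM, again without overlap (log2 change 0.75, SE 0.10, edgeR adjusted p = 2.79e-06).

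Among the surface proteins, CD44 fell from 29.3, 28.2 and 29.2 FPKM to 13.32, 13.97 and 13.05 FPKM (log2 change -1.18, SE 0.05, edgeR adjusted p = 9.33e-14). The spread within either group was small beside the gap, with SDs of 0.63 and 0.47 FPKM. CD24, which was chosen for its fall, stood at 46.2, 44.6 and 45.1 FPKM in NC and at 10.4, 7.98 and 8.23 FPKM in siMEOX2, a log2 difference of -2.42. It was the most abundant member in NC and the third most abundant in siMEOX2, where its libraries overlapped those of KLF4. CD24 has near-identical pseudogene copies, so its counts depend on how reads that match several places were treated.

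PROM1 stayed close to the detection limit, with 10, 5 and 4 counts in NC and 15, 31 and 20 in siMEOX2 (log2 change 1.76, SE 0.44, edgeR adjusted p = 0.00176). Its highest library was at 0.290 FPKM, and the call was lost when all 10 libraries shared 1 fit (edgeR adjusted p = 0.0518). GFAP was low from the start, with 75, 66 and 60 counts in NC and 17, 24 and 26 in siMEOX2 (log2 change -1.60, SE 0.24, edgeR adjusted p = 9.9e-06). In FPKM this was 0.319 to 0.397 against 0.0894 to 0.152. GFAP shares 18.4% of its exon bases with CCDC103 and FAM187A on the opposite strand, and because the library kit does not mark strand, reads of these genes cannot be told apart.

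Markers of other cell types were read beside these falls. The summed level of 4 endothelial markers was 5.43 to 6.08 FPKM in NC and 1.47 to 1.62 in siMEOX2, led by PECAM1, and that of 4 immune markers was 4.26 to 5.05 against 1.19 to 1.65, led by CSF1R. PECAM1 was at 4.11 to 4.59 FPKM in NC and 0.583 to 0.853 in siMEOX2, CDH5 at 0.599 to 0.763 and at most 0.0628, CSF1R at 3.48 to 4.06 and 0.973 to 1.43, and CD14 at 0.547 to 0.966 and 0.188 to 0.304. VWF was at 0.329 to 0.529 FPKM in NC and 0.201 to 0.257 in siMEOX2. The endothelial marker KDR did not fall, at 0.322 to 0.552 FPKM in NC and an overlapping 0.446 to 0.689 in siMEOX2. PTPRC and AIF1 were near 0 in every SNB19 library, at no more than 0.0278 and 0.0946 FPKM. The 4 epithelial markers summed to 68.9 to 74.2 FPKM in NC and 49.8 to 56.8 in siMEOX2, nearly all of it KRT8 and KRT18, while EPCAM was at most 0.434 FPKM. CDH1 went up, from 0.142 to 0.235 FPKM in NC to 0.691 to 0.735 in siMEOX2. The part of these genes in the members' changes was not tested, and in bulk RNA fewer cells that express a gene cannot be told apart from less RNA per cell.

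The second perturbation asked what changed when MEOX2 was supplied to U87, where no MEOX2 read was counted. No member passed: 0 of the 6 tested had an edgeR adjusted p under 0.05, and neither did any of 14180 genes (0%). At an unadjusted p under 0.05 edgeR gave 3 members, SOX4, MYC and KLF4, where 18.6% of genes reached that level. DESeq2, run as an alternative, called 2 members, SOX4 and MYC, among 991 genes, or 6.99% of those tested. The groups of all 6 did not overlap in normalised counts, as was so for 58.1% of genes.

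SOX4 had 0.635 and 1.40 FPKM in EV and 3.82 and 3.41 FPKM in OE. The OE libraries were above both EV libraries, and the log2 change was 1.65 (95% confidence interval 0.71 to 2.59, edgeR adjusted p = 0.172). Left without EV replicate 1, the log2 change was 1.35. SOX9 had 2.97 and 8.21 FPKM in EV and 3.67 and 3.56 FPKM in OE, so the OE values lay between the EV values.

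After scaling for library composition, SOX9 was at 16.7 and 34.3 normalised CPM in EV and at 15.1 and 14.8 in OE. The log2 change was -0.78 (95% confidence interval -1.89 to 0.32, edgeR adjusted p = 0.352), but it was -1.20 without EV replicate 1 and -0.16 without EV replicate 2, so 1 library decides its size. SOX2 and SOX11 were too low to compare: SOX2 had 0 and 1 counts in EV and 3 and 3 in OE, at or under the floor, and SOX11 had no count in any U87 library.

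MYC stood at 46.1 and 85.1 FPKM in EV and at 216 and 219 FPKM in OE. Both OE libraries were above both EV libraries, whose own gap was wide, and the log2 change was 1.54 (95% confidence interval 0.69 to 2.38, edgeR adjusted p = 0.17). It was 1.34 without EV replicate 1 and 1.80 without EV replicate 2. KLF4 was at 4.48 and 10.9 FPKM in EV and 17.4 and 16.3 FPKM in OE, with no overlap (log2 change 0.96, edgeR adjusted p = 0.268). The KLF4 change was 0.61 without EV replicate 1 and 1.46 without EV replicate 2.

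CD44 was abundant in all 4 U87 libraries, at 58.1 and 74.6 FPKM in EV and 69.4 and 66.0 in OE. The FPKM values overlapped, and the log2 change of -0.21 had a 95% confidence interval of -0.997 to 0.58 (edgeR adjusted p = 0.697) and was -0.15 without EV replicate 1. CD24, described without a test, had 81 and 62 counts in EV and 13 and 19 in OE, or 1.62 and 1.42 FPKM against 0.335 and 0.419. Its log2 difference was -2.28, and -1.91 without EV replicate 1. GFAP was at 40 and 32 counts in EV and 19 and 22 in OE (log2 change -0.92, 95% confidence interval -2.13 to 0.28, edgeR adjusted p = 0.332), and the change was -0.60 without EV replicate 1. PROM1 had 1 and 5 counts in EV and 1 and 0 in OE, below the count filter.

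**Figure D2:**
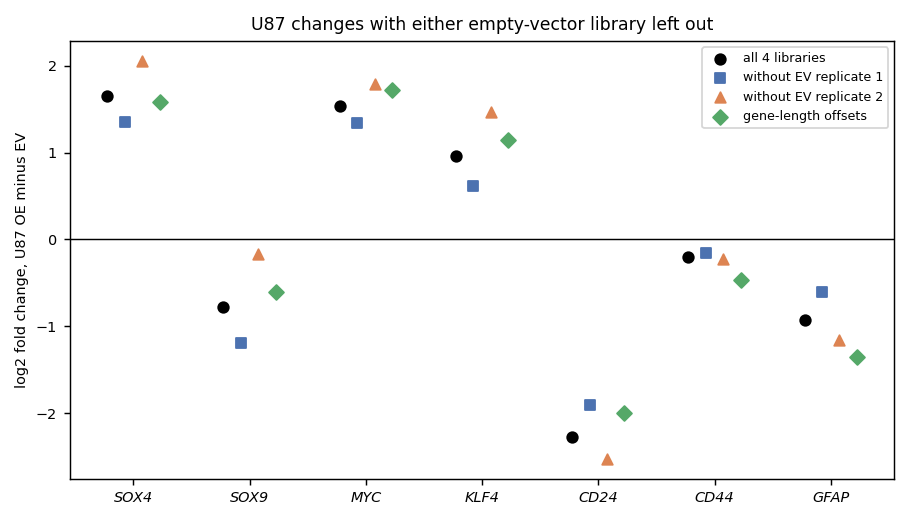
Log2 fold change of OE against EV in U87 (y axis) for the 7 members above the count filter, with all 4 libraries, with either EV library left out, and with offsets by gene length. SOX4, MYC and KLF4 stay above 0 and CD24 and GFAP below 0 at each setting drawn, while SOX9 runs from -1.20 to -0.16.

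When EV replicate 1 was left out, edgeR called 4 of the members, SOX4, SOX9, MYC and KLF4, and when EV replicate 2 was left out it called SOX4, MYC, KLF4 and GFAP. In these fits the remaining EV library was assumed to vary like the OE libraries, and 7052 and 10616 genes passed, or 47.4% and 71.2% of those tested, and the share of members called, 4 of 6, lies between these. SOX4, MYC and KLF4 were thus higher in OE with either control library, and SOX9 and GFAP passed with 1 of them only.

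Whether the log2 changes of the lines were unequal was tested in 1 fit of all 10 libraries, as the change in SNB19 siMEOX2 minus the change in U87 OE. MEOX2 was lowered in SNB19 and supplied in U87, so a gene that follows MEOX2 in both lines also gives a difference. Line, direction of the MEOX2 shift and delivery cannot be told apart here. SOX4 differed, by -2.96 (SE 0.26, edgeR adjusted p = 0.000387), since it went down in SNB19 where MEOX2 was lowered and had a log2 change of 1.65 in U87 where MEOX2 was supplied. CD44 differed by -0.998 (SE 0.16, edgeR adjusted p = 0.00511). SOX2 also passed, with -3.50 (SE 0.84, edgeR adjusted p = 0.0281), but its U87 counts were at or under the floor and it entered the fit through SNB19 alone, and 10 of 15 alternatives kept the call. These 3 of 8 tested members compare with 15.7% of 17312 genes, of which 8.36% had a positive and 7.33% a negative difference. Without EV replicate 1 the difference passed for 4 members, SOX4, SOX9, CD44 and PROM1, where 35.5% of all genes passed, and no longer for SOX2 (edgeR adjusted p = 0.0984). PROM1 entered this fit through the siMEOX2 libraries alone, with at most 5 counts in any U87 library. The CD44 call was lost with a replicate block (adjusted p = 0.0616) and with offsets by gene length (adjusted p = 0.0609), both in edgeR.

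MYC and KLF4 had changes of the same sign in both lines although MEOX2 moved in opposite directions. The difference was -0.21 for MYC (95% confidence interval -0.71 to 0.28, edgeR adjusted p = 0.536) and -0.24 for KLF4 (95% confidence interval -0.94 to 0.46, edgeR adjusted p = 0.639). These intervals do not show that the lines responded alike. SOX9 had a difference of -1.09 (SE 0.35, edgeR adjusted p = 0.0649), and GFAP of -0.71 (SE 0.42, edgeR adjusted p = 0.272). For CD24, whose selection fixes the sign in both lines, the log2 differences were -2.42 in SNB19 and -2.28 in U87.

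**Figure D3:**
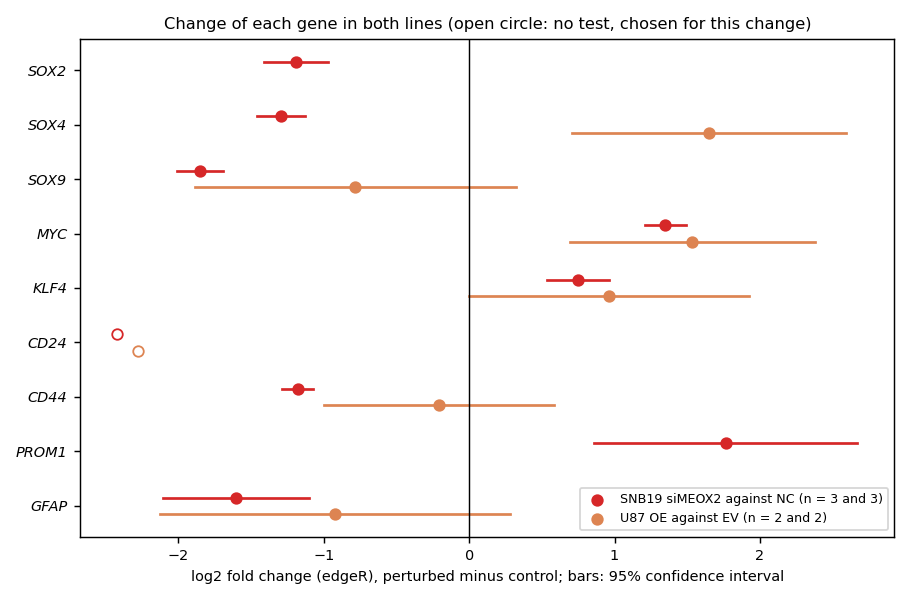
Log2 fold change (x axis) of each gene above the count filter in SNB19 siMEOX2 against NC (3 and 3 libraries) and U87 OE against EV (2 and 2 libraries), with 95% confidence intervals from edgeR. Open circles mark CD24, which was chosen for these changes, and the U87 intervals are wider than those in SNB19.

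Lists of related genes were read beside the members, in the knockdown first, where 55.9% of all genes passed, 27.4% upward and 28.5% downward, which is the background for each count below. Of 6 other SOX factors above the filter, 3 fell and 0 rose. SOX18, a factor of vessel development, went from 25.4 to 29.6 FPKM in NC to 7.69 to 11.8 in siMEOX2 (log2 change -1.60, edgeR adjusted p = 1.47e-10), and SOX13 and SOX15 fell by 0.66 and 1.15 on the log2 scale. The median log2 change of the list was -0.59, against 0.0063 over all genes tested. Of 9 pluripotency and core factors 4 rose and 3 fell, with HMGA2, a chromatin protein of fetal cells, at -0.97, SALL2 at 1.09, EZH2, the H3K27 methyltransferase, at 0.31 and PAX6 at -0.41 (edgeR adjusted p 1.19e-09 to 0.00313). The median of this list was 0.0026.

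Other stem markers mostly fell: 8 of 11 did and 1 rose, with a median of -0.77. L1CAM, a neural adhesion molecule, had the smallest p of this list and went from 11.0 to 11.6 FPKM down to 1.64 to 1.78 (log2 change -2.77, edgeR adjusted p = 2.33e-16). The intermediate filament gene NES changed by -1.20, THY1 by -0.86 and the tetraspanin CD9 by -0.77. Of 7 astrocyte markers 5 fell and 0 rose, among them VIM (-1.01), the gap junction gene GJA1 (-1.01), CLU (-0.63) and the glutamate transporter SLC1A3 (-0.43). The median of the astrocyte list was -0.61. Neural progenitor and early neuron markers were split, with 2 of 12 higher, 3 lower and a median of -0.10, TUBA1A at -1.47 and BEX1 at 1.46.

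The genes around MYC and KLF4 did not move in 1 direction. Of 10 members of the MYC network 5 rose and 4 fell (median 0.18), with MLXIP at -0.71, MXD4 at -0.74, MXD3 at -0.57 and MYCL at 0.99. The MYC antagonists were split, since MXD1 (0.67) and MNT (0.34), named after their values were seen, rose while MXD4 and MXD3 fell. Of 16 textbook MYC targets 7 rose and 4 fell, and the list median was 0.052. The RNA polymerase I subunit POLR1B was at 0.80, FBL and DKC1 of small nucleolar RNPs were at 0.57 and 0.51, and ODC1, the first enzyme of polyamine synthesis, was at -0.68 (edgeR adjusted p 6.41e-10 to 2.23e-08). All 12 other KLF factors above the filter passed, 8 upward and 4 downward (median 0.26), with KLF2 moving from 5.08 to 6.37 FPKM up to 22.3 to 22.5 (log2 change 1.86, edgeR adjusted p = 8.78e-13) and KLF15 by 1.96.

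Of 14 CD44 and hyaluronan partners 6 fell and 3 rose (median -0.16). CEMIP, which breaks down hyaluronan, changed by -1.87, the CD44 linker proteins RDX and MSN by -0.65 and -0.27, and the ligand SPP1 by 0.50 (edgeR adjusted p 1.26e-11 to 0.000454). In U87 no gene of any of these 9 lists passed edgeR after adjustment. At an unadjusted p under 0.05 the counts there were 2 of 4 other SOX factors, 4 of 7 pluripotency and core factors, 4 of 9 stem markers, 3 of 6 astrocyte markers, 2 of 13 neural progenitor markers, 4 of 10 genes of the MYC network, 6 of 16 MYC targets, 5 of 13 KLF factors and 4 of 15 CD44 partners, beside the 18.6% of all genes. The median log2 change of the KLF list in U87 was 1.0, against -0.057 over all genes tested and -0.44 to 0.55 for the other lists. It was not computed without EV replicate 1. The EV libraries were far apart for some KLF genes (KLF7 at 1.76 to 9.78 FPKM) and close for others (KLF2 at 17.7 to 18.1). KLF15 was at 0 FPKM in EV, passed the count filter through OE alone and could only rise.

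The same lists set the control lines apart. Of 13 other stem markers 7 were higher and 4 lower in SNB19 NC than in U87 EV, beside 21.4% and 20% of all genes. THY1 was at 29.7 to 30.3 FPKM in NC and at 0 in both EV libraries, whereas ALDH1A3, an enzyme of retinoic acid synthesis, was at 7.57 to 12.7 FPKM in EV and at most 0.0105 in NC (edgeR adjusted p = 0.000381 for both). Each of these passed the count filter through the line where it is high and had to differ to be tested, so these values are a description. L1CAM, CXCR4 and ALDH1A1, also called higher in SNB19, were at most 0.017, 0 and 0.0652 FPKM in EV. They too could be called in that direction only, so the count of 7 higher is not comparable with the share of all genes. Of 6 other SOX factors 3 were higher in SNB19 and 0 lower, but SOX18 and SOX3 were at 0 in both EV libraries and could be called in that direction only, which leaves SOX13 at 6.22 to 6.79 FPKM in NC and 0.609 to 1.36 in EV. Of 16 MYC targets 0 were higher and 2 lower, HSPD1 and the lactate dehydrogenase gene LDHA, which was at 6.54 to 6.93 FPKM in NC and 307 to 339 in EV. CD44 and hyaluronan partners were split, 5 higher and 4 lower of 15, with the ligand SPP1 at 4.61 to 4.79 FPKM in NC and 70.0 to 77.3 in EV. HAS2 and ESRP1, among the 4 lower, were at most 0.0721 and 0.0529 FPKM in NC. They could be called in that direction only, so the count of 4 lower is not comparable with the share of all genes.

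**Figure D4:**
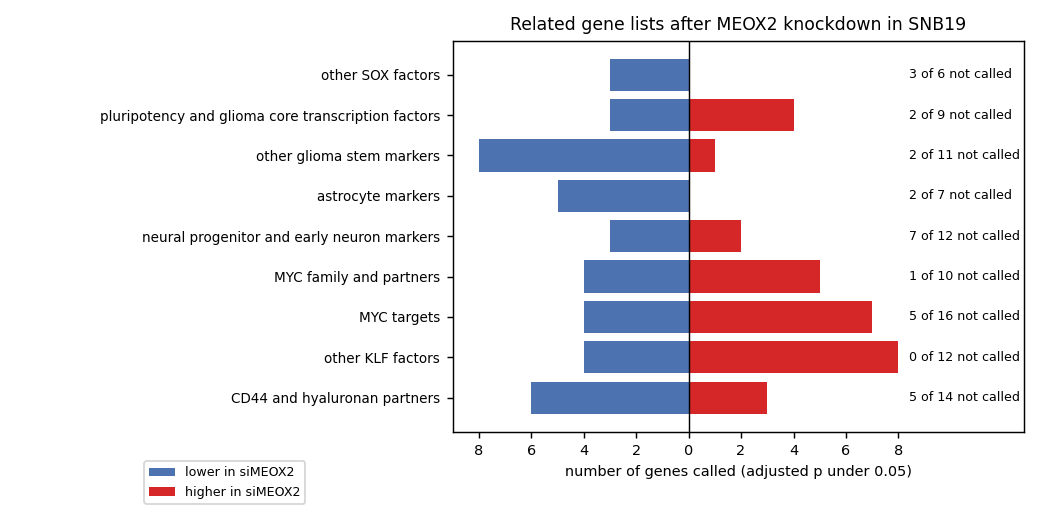
Number of genes (x axis) called lower (left) and higher (right) in SNB19 siMEOX2 for 9 lists related to the members, with the number not called beside each bar. Other stem markers (8 lower, 1 higher) and astrocyte markers (5 lower, 0 higher) lean downward, and other KLF factors (8 higher, 4 lower) lean upward.

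Some list genes had unequal log2 changes under the opposite perturbations, where 15.7% of 17312 genes passed the test of the difference. HAS2, which makes the CD44 ligand hyaluronan, was at 1.09 to 2.07 FPKM in EV and 49.1 to 51.0 in OE and at most 0.116 FPKM in SNB19 (difference -4.69, SE 0.97, edgeR adjusted p = 0.0142). It was below the count filter in the knockdown and entered this fit through the U87 libraries alone. Its change in SNB19 could not be measured, so this difference reflects the U87 values only. NES, called lower in SNB19, was also at lower values in OE, with 2.51 to 3.04 FPKM in EV and 0.187 to 0.221 in OE. Its changes were therefore of the same sign and differed in size, by 2.80 (SE 0.36, edgeR adjusted p = 0.00189). KLF10 was at 12.6 to 29.5 FPKM in EV and 79.9 to 84.3 in OE, and at 8.30 to 8.43 in NC and 6.12 to 6.87 in siMEOX2 (difference -2.26, SE 0.28, edgeR adjusted p = 0.00166). ODC1 was at 65.7 to 69.3 FPKM in EV and 273 to 286 in OE, and at 58.1 to 60.6 in NC and 36.5 to 41.5 in siMEOX2 (difference -2.48, SE 0.24, edgeR adjusted p = 0.000533).

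The genes most like the members were found by Pearson's r of log2(FPKM + 1) over the 10 libraries, after the mean of the control libraries of the same line was taken off, among 12496 genes with a mean of at least 1 FPKM. PTN (0.993) and GSTM4 (0.991) were nearest to CD24, SELENBP1 (0.995) and FBLN1 (0.993) to SOX2, and GFPT2 (0.995) and NCS1 (0.994) to SOX9. XPO5 (0.993) and TMEM167A (0.991) were nearest to MYC, C18orf25 (0.996) and ZBTB43 (0.995) to KLF4, and HSP90AB1 (0.997) and CDH4 (0.995) to CD44. The values for GFAP (HSD11B1, 0.994, and ELMOD2, 0.979) and PROM1 (ZNF570, 0.957, and ZNF485, 0.945) rest on levels of at most 0.397 FPKM. With 10 libraries in 4 groups, these coefficients mainly compare group means and describe the libraries only.

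The members lie on separate chromosomes or far apart. In GRCh38 with GENCODE 29, SOX2 is at chromosome 3, 181711924 to 181714436, SOX4 at chromosome 6, 21592768 to 21598619, SOX9 at chromosome 17, 72121020 to 72126420, KLF4 at chromosome 9, 107484852 to 107490482, CD24 at chromosome 6, 106969831 to 106975627, CD44 at chromosome 11, 35138870 to 35232402, PROM1 at chromosome 4, 15963076 to 16084378, and GFAP at chromosome 17, 44903161 to 44916937. SOX11 is on chromosome 2 and MYC on chromosome 8. All 10 are annotated as protein-coding, and counts cover their exons. SOX2 shares no exon base with the long non-coding RNA SOX2-OT, in whose span it lies, while SOX4, CD44 and PROM1 share 2.87%, 0.84% and 2.23% of their exon bases with other genes, none of which held more than 20 counts in a library.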

How the data were processed

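The authors deposited a gene-level table of raw counts with FPKM values beside them, which are those counts scaled to gene length and library size. The submitters' processing notes name HISAT2, HTSeq 0.11.2 and DESeq2 1.26.0 with the build GRCh38, without roles, and the annotation release is not given in the sources used here. Poly(A) RNA libraries were made with the NEBNext Ultra RNA kit, which does not mark strand. Counts were 12533775 to 16560324 per library, so a floor of 3 counts corresponds to 0.181 to 0.239 CPM.

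Levels are the deposited FPKM. Tests used the deposited counts in edgeR 4.0.16 (R 4.3.3, limma 3.58.1): filterByExpr for the samples of each comparison, TMM scaling, and the quasi-likelihood F test with Benjamini-Hochberg adjustment over all genes tested, called at 0.05. SNB19, U87 and the control groups were fitted separately, and the difference of effects in 1 fit of 10 libraries. The scripts were tested on simulated data. Alternatives were DESeq2 1.42.0, median-ratio size factors, no filter, a replicate block, 1 fit of all libraries, an added threshold of 1 on the absolute log2 change, and leaving out each library. Offsets over 20 gene-length bins and a crossed pairing were chosen after seeing the data.

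The members and lists were chosen with earlier results of these data known. Named are all 10 members, MEOX2, up to 4 called genes per list with the smallest adjusted p, and the 2 genes most like each member, of which those for SOX4 are not reported here. Same-numbered libraries deviated together with r of 0.13, 0.055 and 0.079 in SNB19 and -0.15 in U87, so the numbers were not taken to pair them. Positions and exon overlaps are from GENCODE 29, promoters from RefSeq.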

Additional observations from a re-analysis of the deposited data

Results flagged for a closer look

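Under opposite shifts in MEOX2 the log2 changes were unequal by the test of the difference for 3 members, each given as the log2 change in SNB19 siMEOX2 minus that in U87 OE. A gene that follows MEOX2 in both lines also gives such a difference. For SOX4 the value was -2.96, with both OE libraries above both EV libraries and all 3 siMEOX2 libraries below the NC libraries. For CD44 it was -0.998, from a fall in SNB19 and overlapping FPKM in U87. For SOX2 it was -3.50, where the U87 side rests on 7 counts in 4 libraries.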

How the results depend on the processing

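In the knockdown, 95 of 96 tested alternative member values kept their sign and their side of the threshold, PROM1 being the exception. At every omission of a library 8 members passed, where 47.8 to 57.1% of all genes did. The number of genes called fell to 1654 with an absolute log2 change above 1 and to 2725 with all 10 libraries in 1 fit, and ran from 7662 to 9102 when single libraries were left out. In U87, the 0 genes became 991 with DESeq2, 1863 without a filter, 4538 with all 10 libraries in 1 fit and 29 with offsets by gene length, and 38 to 10616 when single libraries were left out. The 0 members became 2 with DESeq2, 2 without a filter, 3 with all libraries in 1 fit, and 0 to 4 when single libraries were left out. The cause of these shifts was not tested.

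Leaving out single libraries gave 3244 to 13629 genes and 5 to 8 members between the control lines, and 1018 to 10034 genes and 2 to 6 members for the difference of effects. Each highest gene count came without EV replicate 2. Without EV replicate 1 the counts were 11926 and 6495 genes. The log2 difference of effects ran from -0.74 to 0.075 for KLF4, with the sign turned without EV replicate 1, and from -0.57 to 0.088 for CD24, turned without EV replicate 2 and, at 0.0033, without OE replicate 2.

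Replicate numbers were not shown to pair the libraries, although each SNB19 library correlated best with its own number. With a replicate block, 468 genes (3.3%) passed in U87, 3810 (23.6%) between the control lines and 698 (4.03%) for the difference, where 1 member passed in place of 3. A crossed pairing in U87, chosen after seeing the data, gave 1152 genes (8.12%) and 1 member. Depth limits SOX11, PROM1 and, in U87, SOX2, which were near the floor of 3 counts.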
